A study of Mus musculus with 2 samples.

Results

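The 10 genes described here encode the vascular endothelial growth factor (VEGF) ligands, their receptor tyrosine kinases and their neuropilin co-receptors. They were taken by symbol from the 55357 genes listed in the deposited count tables, and all 10 were found. The ligands are Vegfa, Vegfb, Pgf, Vegfc and Vegfd (5 genes), the receptors are Flt1 (VEGF receptor 1), Kdr (VEGF receptor 2) and Flt4 (VEGF receptor 3) (3 genes), and the neuropilins are Nrp1 and Nrp2. Their levels were measured in the cell types that could send the ligands and in those that could receive them, with capillary, arterial, endocardial and lymphatic endothelium kept apart.

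VEGF ligands are secreted proteins that bind receptor tyrosine kinases on neighbouring cells, mainly endothelial cells, and control the growth, survival and permeability of vessels. VEGF-A signals through Kdr, while Flt1 binds VEGF-A, VEGF-B and placental growth factor (the product of Pgf) and also exists as a soluble decoy form. VEGF-C and VEGF-D bind Flt4, the receptor of lymphatic growth, and neuropilins hold ligands for these receptors and for class 3 semaphorins. In the heart, VEGF-A from cardiomyocytes is known for maintaining the capillary bed that supplies the muscle.

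Dissociated heart cells of C57BL/6 mice were profiled by single-cell RNA sequencing with a 10x Chromium 3-prime kit, in 1 library from Sham mice and 1 library from mice with transverse aortic constriction (TAC). TAC is a surgical narrowing of the aorta that makes the left ventricle pump against a raised pressure; by the labels it was done in male mice aged 8 weeks and lasted 6 weeks, while the Sham label gives surgery without the constriction and states neither age nor sex. The design text of the deposit calls the controls uninjured, and this difference could not be settled. Each library combined the cells of 3 to 5 hearts, so there was no replicate library, no test was possible, and each interval below reflects counting error alone and each ratio describes these 2 libraries.

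The Sham library held 28146691 unique molecular identifiers (UMIs, which count captured RNA molecules) in 9935 barcodes and the TAC library 29108986 UMIs in 9932 barcodes, with 32 barcode sequences in common. After removal of doublets, 9475 Sham and 9452 TAC cells were kept. Cells were clustered without the 10 genes and without the pathway genes listed further below, and clusters were named from fixed marker genes. In the Sham and TAC libraries this gave 2510 and 2396 cardiomyocytes, 2290 and 2128 fibroblasts, 1064 and 1043 pericytes, and 1412 and 1346 macrophages. The endothelial cells comprised 916 and 1015 capillary, 98 and 156 arterial, 195 and 300 endocardial, and 85 and 110 lymphatic cells. A further endothelial cluster of 250 Sham and 388 TAC cells, led by Rasa4, Kirrel3 and Samd5, carried too few markers of any class for a name and is called the Rasa4 cluster. Endothelial cells of 445 Sham and 393 TAC barcodes were set aside, because more markers of another cell type (cardiomyocyte genes Myh6, Tnnt2 and Ttn in a cluster of shallow cells, the mast cell marker Kit in the other) than of endothelium were among their leading genes. Smooth muscle cells, T cells, B cells, Schwann cells and epicardial or mesothelial cells numbered 57 or fewer in each library, and dendritic cells were named in the Sham library only (49 cells). A level below is the number of UMIs of a gene per 1000000 UMIs of a cell type, with an exact Poisson 95% interval, and is compared only within a gene.

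The summed levels of the marker lists that named the classes describe how far apart these classes are, and are no independent check of the names. The summed level of the 8 lymphatic markers (Prox1, Lyve1 and others) was 9856 in Sham and 8924 in TAC lymphatic endothelium and at most 182 in the other named endothelial classes of either library. The 8 endocardial markers (Npr3, Tmem108 and others) summed to 12025 and 13543 in endocardial cells against 236 and 436 in capillary cells. Arterial and capillary cells were less far apart: the 8 arterial markers summed to 7463 and 8524 in arterial and 3098 and 2846 in capillary cells, and the 8 capillary markers to 2558 and 2742 in arterial and 3553 and 3401 in capillary cells. The 8 cardiomyocyte markers were above 0 in every cell type of both libraries, at 81621 (Sham) and 63368 (TAC) in cardiomyocytes and between 1831 and 5002 in the other types compared below. Their level was higher in Sham than in TAC in each of the 9 types, and is set beside the values of Vegfa.

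In the GRCm38 assembly with the GENCODE M21 annotation, which holds 94.1% of the gene identifiers in the files, all 10 are protein-coding genes. Vegfa lies at chr17:46016993-46032369 on the minus strand, Vegfb at chr19:6982473-6987651 (minus), Pgf at chr12:85166635-85177790 (minus), Vegfc at chr8:54077606-54187096 (plus) and Vegfd at chrX:164373378-164402650 (plus). Flt1 lies at chr5:147561604-147726011 and Kdr at chr5:75932827-75978458, both on the minus strand, and Flt4 at chr11:49609263-49652739, Nrp1 at chr8:128358604-128503363 and Nrp2 at chr1:62703285-62818695, all on the plus strand. The 3-prime counts of a gene are summed over its transcripts, so soluble and membrane-bound Flt1 were not told apart. Nrp2 shares its locus with Gm37121 on the same strand, which had 94 UMIs in the Sham and 159 in the TAC matrix, and with the antisense gene Gm29083 (1 and 8 UMIs).

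The promoters of 3 members are shown: Vegfa, found mainly in cardiomyocytes, and Flt1 and Kdr, found mainly in endothelial cells. Between the single endothelial classes Flt4 was the more restricted receptor, with its highest level in lymphatic cells. Each sequence is the 250 bases before the RefSeq start site (GRCm38.p6), read 5′ to 3′ on the minus strand, at chr17:46032378-46032627 for Vegfa, chr5:147726012-147726261 for Flt1 and chr5:75978456-75978705 for Kdr. The RefSeq table holds a second start of Vegfa, whose window (chr17:46025164-46025413, with 2 of the cores marked here) is not shown because the bases after that start were not found in a GENCODE transcript of the gene. Capitals mark GGAA or its reverse complement TTCC, the core of the sites bound by ETS factors.
Vegfa: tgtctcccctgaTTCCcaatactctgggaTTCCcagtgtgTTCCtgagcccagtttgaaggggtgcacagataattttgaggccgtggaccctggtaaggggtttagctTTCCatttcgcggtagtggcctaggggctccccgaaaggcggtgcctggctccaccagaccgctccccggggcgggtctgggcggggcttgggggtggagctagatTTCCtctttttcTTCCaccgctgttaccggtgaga
Flt1: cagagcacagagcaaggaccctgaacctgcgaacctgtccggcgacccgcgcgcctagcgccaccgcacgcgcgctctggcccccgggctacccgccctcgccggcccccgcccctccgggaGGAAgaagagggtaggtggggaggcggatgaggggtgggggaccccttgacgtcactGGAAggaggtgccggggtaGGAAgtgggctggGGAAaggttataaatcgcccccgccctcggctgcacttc
Kdr: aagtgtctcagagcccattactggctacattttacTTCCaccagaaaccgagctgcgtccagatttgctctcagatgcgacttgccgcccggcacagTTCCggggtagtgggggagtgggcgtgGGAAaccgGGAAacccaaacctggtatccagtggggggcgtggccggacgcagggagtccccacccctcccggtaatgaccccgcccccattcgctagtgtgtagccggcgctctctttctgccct
The core occurred 6 times before Vegfa, 4 times before Flt1 and 4 times before Kdr. Of all 32851 promoter windows of this length in the table, 93.4% held it at least 1 time, 33.4% at least 4 times and 8.69% at least 6 times. The GC box GGGCGG (either strand) occurred 2 times before Vegfa, 3 times before Flt1 and 2 times before Kdr, and 32.7% of all windows held it. The sequence TATAAA (either strand) occurred 1 time before Flt1 and was not in the windows of Vegfa and Kdr, against 12.4% of all windows. These are matches of letters and not measured binding sites.

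**Figure D1:**
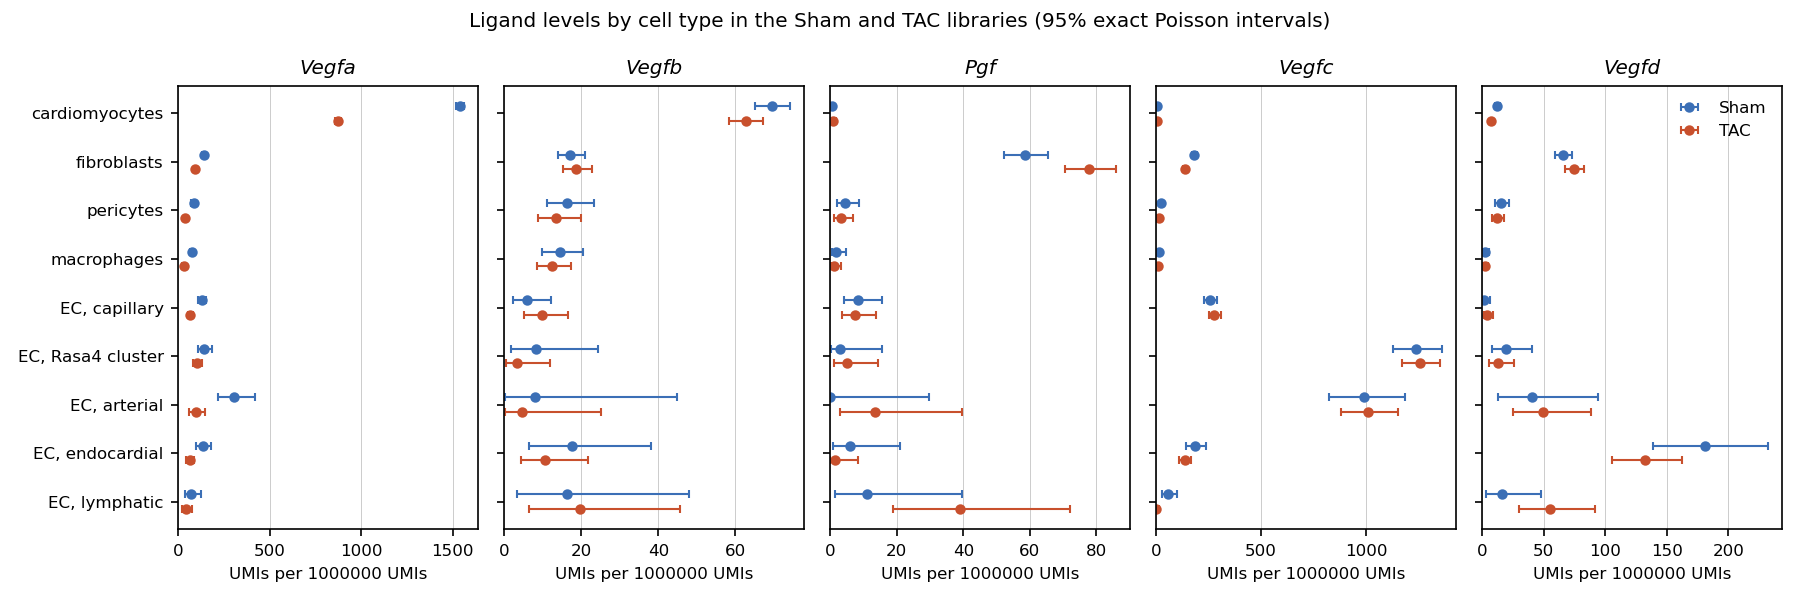
Levels of the 5 ligands (UMIs per 1000000 UMIs of the cell type, horizontal axis, a separate scale for each gene) in 9 cell types of the Sham (blue) and TAC (red) libraries; points are pooled levels and bars exact Poisson 95% intervals. Vegfa and Vegfb were highest in cardiomyocytes, Pgf in fibroblasts, Vegfc in the Rasa4 cluster and in arterial endothelium, and Vegfd in endocardial endothelium.

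Vegfa, the ligand of Kdr and Flt1, was a cardiomyocyte transcript in these libraries, and its level was lower in TAC. Cardiomyocytes held 20780 of the 22326 Vegfa UMIs of the Sham cells (93.1%) and 11466 of the 12388 UMIs of the TAC cells (92.6%). The cardiomyocyte level was 1541 (95% interval 1520 to 1562) in Sham and 874 (858 to 890) in TAC. The intervals of the 2 libraries were far apart, and the TAC level was 0.567 of the Sham level (0.554 to 0.580). When cells were thinned to 1000 UMIs each, 75.3% of 2477 Sham cardiomyocytes and 58.2% of 2385 TAC cardiomyocytes had a Vegfa UMI, against 6.63% and 3.20% of macrophages. Fewer cells thus held a Vegfa UMI at equal depth; without thinning the shares were 97.3% and 93.7%, at median depths of 4510 and 4916.5 UMIs per cardiomyocyte.

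Each library had 2 clusters of cardiomyocytes, and both TAC clusters had a lower Vegfa level than both Sham clusters. In Sham, the larger cluster (1809 cells, with Slc38a3 and Ptgds among its leading genes) had a Vegfa level of 1663 and the smaller (701 cells, led by Fgf14, Pdzrn4 and Gm12381) a level of 1328. In TAC, the larger cluster (1447 cells, led by Pdzrn4, Gm12381 and Gm35041) had a level of 859 and the smaller (949 cells, led by Ankrd1) a level of 905. Clusters led by different genes held most cardiomyocytes of the 2 libraries, since the Pdzrn4-led cluster was the smaller in Sham and the larger in TAC.

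In the 8 other types compared here, Vegfa was below the cardiomyocyte level and also lower in TAC. Its level was 141 (131 to 151) in Sham and 94.0 (85.9 to 103) in TAC fibroblasts, 85.0 and 38.5 in pericytes, and 75.2 and 28.8 in macrophages. In endothelium it was 128 and 66.5 in capillary cells, 134 and 62.2 in endocardial cells, 307 (217 to 421) and 94.7 (58.6 to 145) in arterial cells, and 142 and 103 in the Rasa4 cluster. Among the larger types the TAC level was thus between 0.309 (arterial, 0.172 to 0.540) and 0.726 (Rasa4 cluster, 0.494 to 1.07) of the Sham level. In lymphatic cells it was 71.1 and 43.0, from 13 and 11 UMIs. Part of the arterial difference rested on 1 Sham cell with 8 of the 38 UMIs.

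The cardiomyocyte markers counted in the other types moved with these values, and were used to set the measured levels beside those that carried-over cardiomyocyte RNA would give. A carry-over level was computed for each type from the cardiomyocyte level of Vegfa and the amount of the 8 cardiomyocyte markers in that type. In macrophages it was 71.1 in Sham and 31.3 in TAC, next to the measured 75.2 and 28.8, so carry-over came to 94.5% of the measured level in Sham and 109% in TAC. In capillary cells it was 93.6 and 49.8, which is 73.4% and 74.8% of the measured level. In fibroblasts it was 48.7 and 25.7 (34.6% and 27.3% of the measured level), and in arterial cells 94.4 and 49.6 (30.8% and 52.4%). Fibroblasts and arterial cells of the Sham library were thus the furthest above it. The carry-over level itself was lower in TAC, at 0.420 to 0.559 of the Sham value over the 8 types. It is computed from the cardiomyocyte Vegfa level of the same library, which in TAC was 0.567 of the Sham level. Part of this difference was thus built into the computation. The part of carry-over in the lower Vegfa levels of TAC was not tested further than the subtraction that follows. With the carry-over level subtracted, an alternative chosen after the data were seen, Vegfa was 92.1 and 68.3 in fibroblasts, 212 and 45.1 in arterial cells, 65.8 and 60.4 in the Rasa4 cluster, 33.9 and 16.8 in capillary cells and 67.5 and 31.9 in endocardial cells, where the carry-over level was 66.8 and 30.3. In lymphatic cells the order of the libraries then turned, at 10.9 in Sham and 17.8 in TAC. The measured levels there came from 13 Sham and 11 TAC UMIs, and carry-over was 84.7% and 58.7% of them. These counts are too few to settle the order. In the Sham T cells (37 cells, with the 8 cardiomyocyte markers at 27040) 30 of 34 Vegfa UMIs lay in 2 cells.

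**Figure D2:**
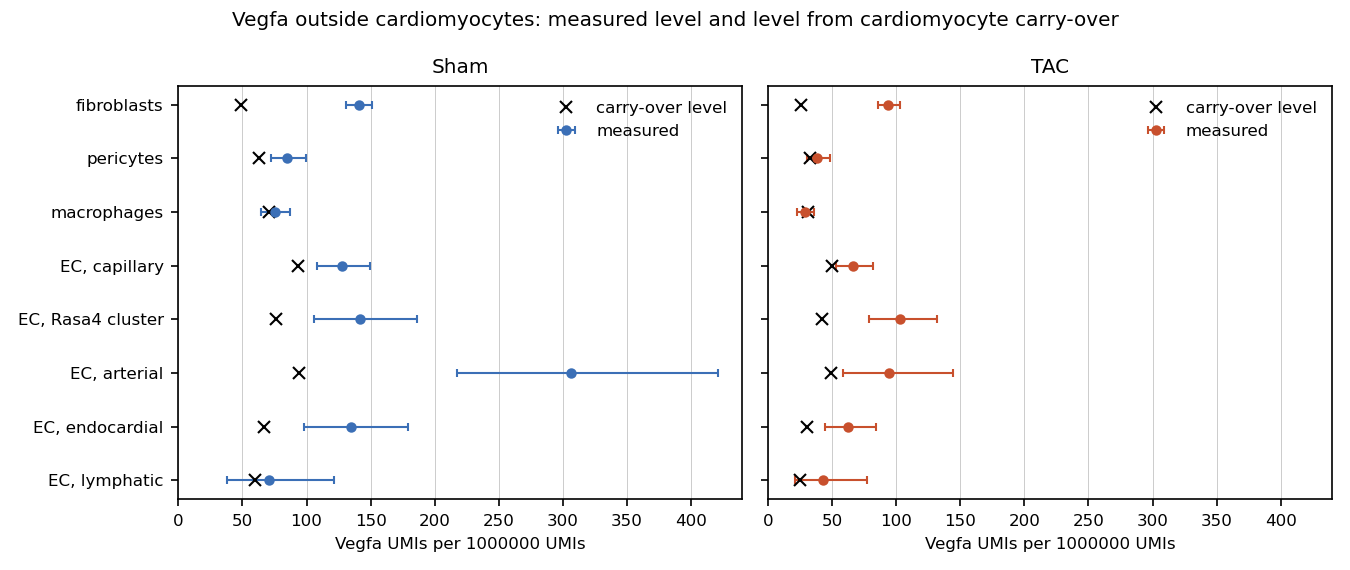
Vegfa level outside cardiomyocytes (UMIs per 1000000 UMIs, horizontal axis) in 8 cell types of the Sham (left) and TAC (right) libraries; points with bars are measured levels with exact Poisson 95% intervals, and crosses are the levels computed from cardiomyocyte carry-over. Macrophages lie at the carry-over level in both libraries, and fibroblasts lie above it in both.

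Vegfb, the ligand of Flt1 alone among the kinases, was also mainly a cardiomyocyte transcript and differed little between the libraries. Cardiomyocytes held 938 of 1127 Vegfb UMIs in Sham (83.2%) and 822 of 1013 in TAC (81.1%). Their level was 69.6 (65.2 to 74.2) in Sham and 62.7 (58.5 to 67.1) in TAC, a ratio of 0.901 (0.819 to 0.991). The ratio of Vegfb in the same cells was therefore closer to 1 than that of Vegfa, and its interval ended just below 1. Fibroblasts had 17.1 and 18.7, pericytes 16.3 and 13.5 and macrophages 14.5 and 12.3, with intervals that overlapped between the libraries in each type. The carry-over level from cardiomyocytes was 1.84 to 3.21 in these 3 types.

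Pgf, which encodes placental growth factor, was found mainly in fibroblasts. Fibroblasts held 318 of 382 Pgf UMIs in Sham (83.2%) and 404 of 462 in TAC (87.4%), and their level was 58.6 (52.3 to 65.4) in Sham and 77.8 (70.4 to 85.8) in TAC. The TAC level was 1.33 times the Sham level (1.14 to 1.54), and the intervals of the libraries did not overlap. Among the fibroblast clusters the highest level was in the cells led by Plcxd3, C7 and Adgrd1 in Sham (74.3) and in those led by Gfpt2, Adgrd1 and Pi16 in TAC (94.0). It was lowest in the cells led by Nkain2 or Sntg1 (16.2 in Sham and 10.9 in TAC). Smooth muscle cells had levels of 86.4 (43.1 to 155) and 41.0 (11.2 to 105), from 11 and 4 UMIs, which did not differ from fibroblasts beyond counting error. The set-aside endothelial cells led by Kit had 138 (75.7 to 232) in Sham, above each fibroblast cluster, and 34.2 (11.1 to 79.9) in TAC, from 14 and 5 UMIs. Cardiomyocytes had 6 and 12 Pgf UMIs in all.

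Vegfc, the main ligand of Flt4, had its highest levels inside the endothelium. The Rasa4 cluster had 1241 (1128 to 1361) in Sham and 1260 (1172 to 1352) in TAC, and arterial cells had 992 (825 to 1184) and 1010 (882 to 1152). The Rasa4 cluster was 1.25 times the arterial level in both libraries (1.02 to 1.54 in Sham, 1.07 to 1.45 in TAC), and arterial cells were 3.86 times (3.11 to 4.78) and 3.64 times (3.07 to 4.31) the capillary level. Capillary cells had 257 (229 to 287) and 277 (250 to 307), fibroblasts 182 (171 to 193) and 137 (127 to 148), and endocardial cells 187 (144 to 239) and 135 (108 to 166). Between the libraries the ratios of the 3 endothelial classes with the most Vegfc were 1.02 in the Rasa4 cluster (0.902 to 1.14), 1.02 in arterial cells (0.813 to 1.28) and 1.08 in capillary cells (0.926 to 1.26), all with intervals that include 1. The endocardial ratio was 0.722 (0.518 to 1.01), and the fibroblast ratio was 0.755 (0.685 to 0.832). Fibroblast clusters differed in Vegfc, from 137 to 343 in Sham and from 94.6 to 263 in TAC, and the cells led by Nkain2 or Sntg1, with the most in each library, numbered 218 in Sham and 42 in TAC. Endothelial cells nevertheless held a larger part of the transcript in TAC. Of all Vegfc UMIs, fibroblasts held 46.1% in Sham and 30.1% in TAC, while the share of all endothelial cells was 48.5% and 64.3%. These shares also follow the numbers of cells in each type, since the TAC library held more cells of the Rasa4 cluster. Lymphatic cells had 10 Vegfc UMIs in Sham (level 54.7) and 0 in TAC, where 3 counts would be a level of 11.7. In cardiomyocytes the level was 3.26 in Sham and 5.64 in TAC. The TAC clusters did not move together there, since the larger had 6.96 and the smaller 2.99, against 3.15 and 3.47 in the Sham clusters.

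Vegfd, the other ligand of Flt4, was highest in endocardial endothelium. The endocardial level was 181 (139 to 232) in Sham and 132 (106 to 163) in TAC, a ratio of 0.729 (0.520 to 1.03). Fibroblasts had 65.4 (58.8 to 72.6) and 74.8 (67.5 to 82.6), so endocardial cells were 2.77 times (2.08 to 3.63) and 1.76 times (1.38 to 2.23) as high. Fibroblasts nevertheless held most Vegfd UMIs (55.5% in Sham and 59.6% in TAC), and were the more numerous cells. The fibroblasts led by Nkain2 or Sntg1 stood out, with 200 in 218 Sham cells and 733 in 42 TAC cells, in which Vegfd was among the leading genes, while the other fibroblast clusters lay between 46.8 and 68.2. In cardiomyocytes Vegfd was 12.2 (10.4 to 14.3) in Sham and 7.40 (6.00 to 9.02) in TAC, a ratio of 0.604 (0.465 to 0.781). The carry-over level from endocardial cells, computed in the same way from the 8 endocardial markers, was 8.49 and 6.62 there. Capillary cells had 2 and 5 Vegfd UMIs.

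**Figure D3:**
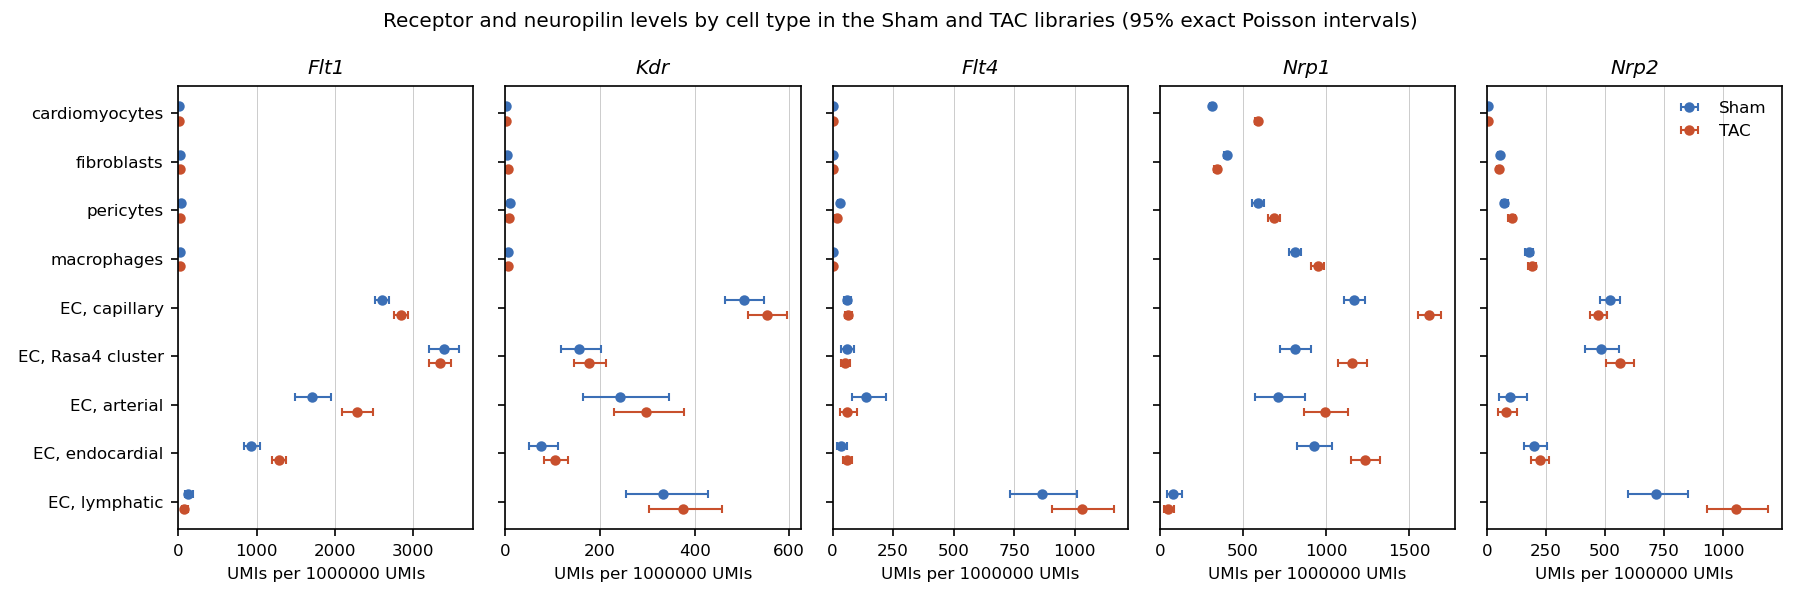
Levels of the 3 receptors and 2 neuropilins (UMIs per 1000000 UMIs of the cell type, horizontal axis, a separate scale for each gene) in 9 cell types of the Sham (blue) and TAC (red) libraries; points are pooled levels and bars exact Poisson 95% intervals. Flt1 spread over the blood vascular endothelium, Kdr was highest in capillary cells, Flt4 in lymphatic cells, and Nrp1 reached cardiomyocytes, fibroblasts, pericytes and macrophages as well.

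Flt1, the decoy and signalling receptor for VEGF-A, VEGF-B and placental growth factor, was found mainly in endothelium and was low in its lymphatic part. Endothelial cells of all classes held 5798 of 6133 Flt1 UMIs in Sham (94.5%) and 8205 of 8539 in TAC (96.1%). The Rasa4 cluster had 3396 (3208 to 3592) in Sham and 3341 (3198 to 3489) in TAC, capillary cells 2603 (2512 to 2696) and 2846 (2756 to 2937), arterial cells 1710 (1488 to 1957) and 2282 (2088 to 2490), and endocardial cells 935 (835 to 1043) and 1281 (1197 to 1371). Lymphatic cells had 126 (79.7 to 189) and 78.2 (47.8 to 121). The order was the same in both libraries, and each of these 5 classes differed from the next beyond counting error. The TAC level was 1.33 times the Sham level in arterial cells (1.13 to 1.57), 1.37 times in endocardial cells (1.20 to 1.56), 1.09 times in capillary cells (1.04 to 1.15) and 0.984 times in the Rasa4 cluster (0.916 to 1.06). At 1000 UMIs per cell, 84.6% of Sham and 86.6% of TAC capillary cells had a Flt1 UMI, against 1.01% and 0.922% of cardiomyocytes.

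Kdr, the main signalling receptor for VEGF-A, followed another order within the endothelium. Its level was 504 (465 to 546) in Sham and 553 (514 to 594) in TAC capillary cells, 334 (255 to 429) and 376 (304 to 459) in lymphatic cells, and 242 (163 to 346) and 298 (230 to 379) in arterial cells. It was lower in the Rasa4 cluster, at 156 (118 to 202) and 176 (145 to 213), and in endocardial cells, at 75.9 (49.6 to 111) and 105 (81.4 to 132). The Rasa4 cluster was thus the highest of these classes for Flt1 and the lowest but 1 for Kdr, and lymphatic cells were the lowest for Flt1 and second to capillary cells for Kdr. The intervals of lymphatic and arterial cells overlapped in both libraries, and those of arterial cells and the Rasa4 cluster in Sham. The ratios of TAC to Sham lay between 1.10 (capillary, 0.983 to 1.22) and 1.38 (endocardial, 0.866 to 2.25) in the endothelial classes, and all 5 intervals included 1. Epicardial or mesothelial cells had 17 Kdr UMIs in 20 Sham cells and 21 in 26 TAC cells, which are levels of 428 (249 to 685) and 339 (210 to 519). In cardiomyocytes, fibroblasts, pericytes and macrophages Kdr lay between 1.33 and 9.26.

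The 2 receptors were also counted in the same cells at 1000 UMIs each. Of 573 Sham capillary cells, 29.3% (25.6% to 33.2%) held UMIs of both Flt1 and Kdr, 55.3% held Flt1 only and 3.66% held Kdr only; of 685 TAC capillary cells the shares were 31.8% (28.3% to 35.5%) and 54.7%, with Kdr only in 26 cells. In the Rasa4 cluster 77.6% of 183 Sham cells and 78.6% of 309 TAC cells held Flt1 without Kdr. In lymphatic cells the pattern turned round, with Kdr only in 21.1% (12.3% to 32.4%) of 71 Sham cells and 22.8% of 101 TAC cells, and Flt1 only in 4.23% and 5.94%. A cell without a UMI at this depth may still hold the transcript.

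The capillary cells were not uniform in these genes. In the largest capillary cluster (led by Myo10, Rnf220 and Auts2) Vegfc was 49.96 in Sham and 67.0 in TAC while Kdr was 623 and 808. In the cluster led by Lhx6, Ntf3 and Aqp1, Vegfc was 613 and 570 while Kdr was 304 and 437. Clusters with more Vegfc thus had less Kdr between these 2, and the Rasa4 cluster, with Vegfc of 1241 and 1260 and Kdr of 156 and 176, lay at the far end in both libraries. The cluster led by Btnl9, Lrrc3b and Cxcl12 had Vegfc of 122 and 57.9 with Kdr of 584 and 567, and that led by Ncald, Hdac9 and Nav3 had Vegfc of 449 and 401 with Kdr of 514 and 394. The 2 smallest capillary clusters, led by the interferon-response genes Cmpk2, Rsad2 and Iigp1 and by the immediate early genes Fosb, Egr1 and Fos, held 135 and 73 cells and had wide intervals. Flt1 varied less, between 1991 and 3410.1 over the capillary clusters of both libraries.

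**Figure D4:**
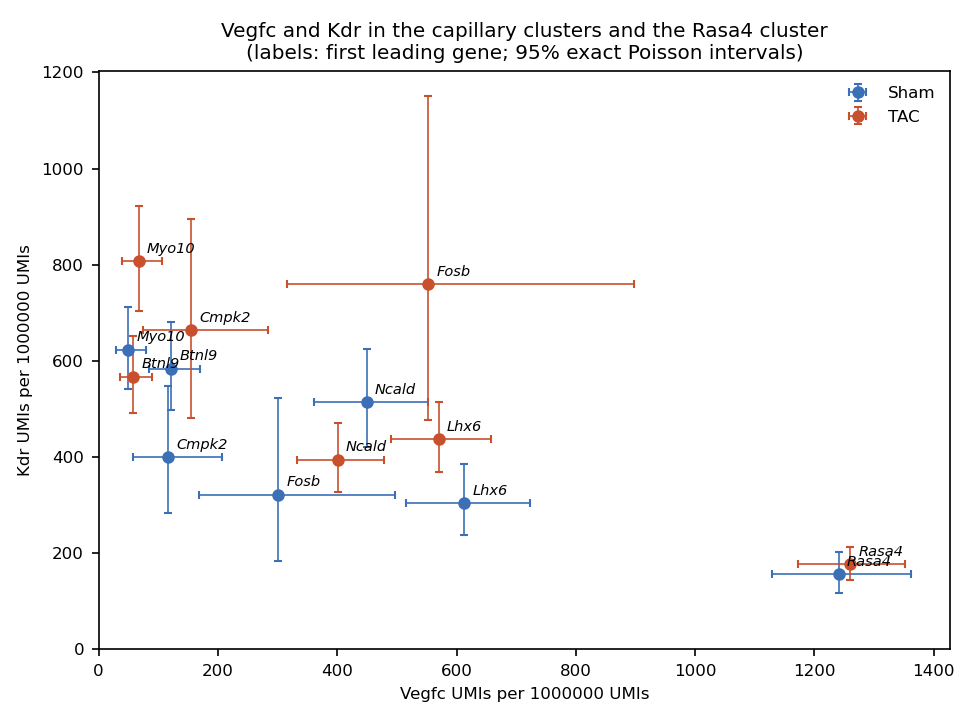
Vegfc level (horizontal axis) against Kdr level (vertical axis), both in UMIs per 1000000 UMIs, in 6 capillary clusters and the Rasa4 cluster of the Sham (blue) and TAC (red) libraries; each point is 1 cluster in 1 library, labelled by its first leading gene, with exact Poisson 95% intervals. The Myo10-led cluster has low Vegfc and high Kdr, and the Rasa4 cluster the highest Vegfc and lowest Kdr, in both libraries.

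Flt4, the receptor for VEGF-C and VEGF-D, was highest in lymphatic endothelium. The lymphatic level was 864 (735 to 1010) in Sham and 1029 (908 to 1161) in TAC, a ratio of 1.19 (0.974 to 1.46), and 64.8% and 61.4% of lymphatic cells had a Flt4 UMI at 1000 UMIs per cell. It was 6.30 times (3.81 to 11.1) the arterial level in Sham, the highest of the other classes there. Blood vascular cells were not without it, at 58.7 and 64.3 in capillary cells, 58.4 and 52.3 in the Rasa4 cluster, 35.1 and 59.1 in endocardial cells, and 137 (79.9 to 220) and 58.6 (31.2 to 100) in arterial cells. Pericytes, the mural cells of capillaries, had 31.1 (23.5 to 40.2) in Sham and 16.6 (11.4 to 23.5) in TAC, a ratio of 0.536 (0.336 to 0.840) that was 0.692 (0.455 to 1.04) when no doublets were removed. The carry-over level from lymphatic cells was 6.499 and 8.817 in pericytes. The same computation gave 14.7 and 32.1 in macrophages, above what was measured there. The lymphatic marker Lyve1 was also raised in the macrophage clusters of both libraries, so this computation cannot give the carry-over in macrophages. Macrophages and fibroblasts lay between 0.767 and 1.29 in both libraries.

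Nrp1, a co-receptor for VEGF-A and semaphorins, was present in all the main types and was higher in TAC in most of them. Cardiomyocytes had 4239 UMIs and a level of 314 (305 to 324) in Sham and 7715 UMIs and a level of 588 (575 to 601) in TAC. The TAC level of cardiomyocytes was 1.87 times the Sham level (1.80 to 1.94), and at 1000 UMIs per cell 24.9% of Sham and 40.9% of TAC cardiomyocytes had an Nrp1 UMI. Both Sham clusters of cardiomyocytes (319 and 312) lay below both TAC clusters (567 and 599). The level that carry-over from capillary cells would give in cardiomyocytes was 17.6 and 23.0.

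In endothelium Nrp1 was 1167 (1107 to 1230) in Sham and 1620 (1552 to 1689) in TAC capillary cells, 926 (827 to 1034) and 1233 (1150 to 1321) in endocardial cells, 812 (722 to 911) and 1157 (1073 to 1245) in the Rasa4 cluster, and 710 (569 to 875) and 992 (865 to 1132) in arterial cells. The ratios were 1.39 (1.30 to 1.49), 1.33 (1.17 to 1.52), 1.42 (1.24 to 1.64) and 1.40 (1.09 to 1.81), which are close to each other in the 4 blood vascular classes. Lymphatic cells had only 82.0 and 50.9, from 15 and 13 UMIs. Macrophages had 813 (776 to 851) and 948 (911 to 986) and pericytes 587 (553 to 624) and 687 (650 to 725), each 1.17 times as high in TAC. Fibroblasts went the other way, at 402 (385 to 419) and 344 (328 to 360), a ratio of 0.857 (0.804 to 0.912).

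Nrp2, a co-receptor for VEGF-C and semaphorins, was highest in lymphatic cells and low in cardiomyocytes. The lymphatic level was 716 (599 to 850) in Sham and 1056 (934 to 1190) in TAC, a ratio of 1.47 (1.19 to 1.83), and the intervals of the libraries did not overlap. Capillary cells had 519 and 471, the Rasa4 cluster 484 and 562, endocardial cells 202 and 223, and macrophages 178 and 189, with ratios whose intervals include 1. Arterial cells had only 96.8 and 81.2, below capillary cells and the Rasa4 cluster in both libraries. Pericytes had 74.1 (62.2 to 87.7) and 106 (91.6 to 121), a ratio of 1.42 (1.14 to 1.78). Among all endothelial clusters the highest Nrp2 level was in the set-aside cells led by Kit, Ephb1 and 2610203C22Rik, at 1414 in 76 Sham cells and 1349 in 89 TAC cells. Cardiomyocytes had 3.26 and 3.05.

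For a comparison of all members, a gene counted as changed in size where its level differed by at least 1.5-fold between the libraries, among genes with at least 20 UMIs in the type over both libraries. In cardiomyocytes 6 of 9 members with enough UMIs passed this size, against 24.6% of all genes so measured. Nrp1, Vegfc, Kdr and Flt4 were higher in TAC and Vegfa and Vegfd lower, but Vegfc, Kdr and Flt4 were at levels of 5.64 or lower there and the intervals of Kdr (0.854 to 3.07) and Flt4 (0.919 to 4.92) include 1. In fibroblasts 0 of 9 members passed, against 20.6% of all genes, and Vegfa at 0.668 (0.595 to 0.749) was just inside the size limit. In pericytes 3 of 9 passed, against 20.6%, all lower in TAC (Vegfa, Vegfc and Flt4). In macrophages 1 of 7 passed (Vegfa), against 24.3%.

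In the endothelial classes Vegfa was the member that most often passed, downward. The count was 2 of 9 in capillary cells (Vegfa lower, and Vegfb higher from 7 and 13 UMIs) against 21.9% of all genes, and 0 of 7 in the Rasa4 cluster against 27.0%. It was 2 of 7 in arterial cells (Vegfa and Flt4, both lower) against 31.1%, and 2 of 8 in endocardial cells (Vegfa lower, Flt4 higher) against 27.1%. In lymphatic cells 3 of 6 passed (Vegfa, Flt1 and Nrp1, all lower and each with an interval that includes 1) against 29.0%, and none of the 3 passed when no doublets were removed (0.715, 0.750 and 0.708). Among the 19 pairs of member and type past 1.5-fold in the 9 types, the interval excluded 1 for Vegfa in cardiomyocytes, pericytes, macrophages, capillary, arterial and endocardial cells, for Flt4 in pericytes and arterial cells, and for Nrp1, Vegfc and Vegfd in cardiomyocytes. The Flt4 ratio of arterial cells was 0.427 (0.191 to 0.935) and became 0.859 when the endothelial cells of each library were clustered apart, and the Vegfc ratio of pericytes became 0.879 when no doublets were removed. The Vegfb ratio of capillary cells was 1.65 and turned below 1 under 5 of the alternatives tried, to 0.769 when no doublets were removed. The measured Vegfa level was lower in TAC in all 9 types. With the carry-over level subtracted, the order turned in lymphatic cells, where 13 Sham and 11 TAC UMIs were too few to settle it. No Vegfa was then left in TAC macrophages, and pericytes were at 21.8 and 5.45, a larger difference than the measured ratio of 0.453.

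**Figure D5:**
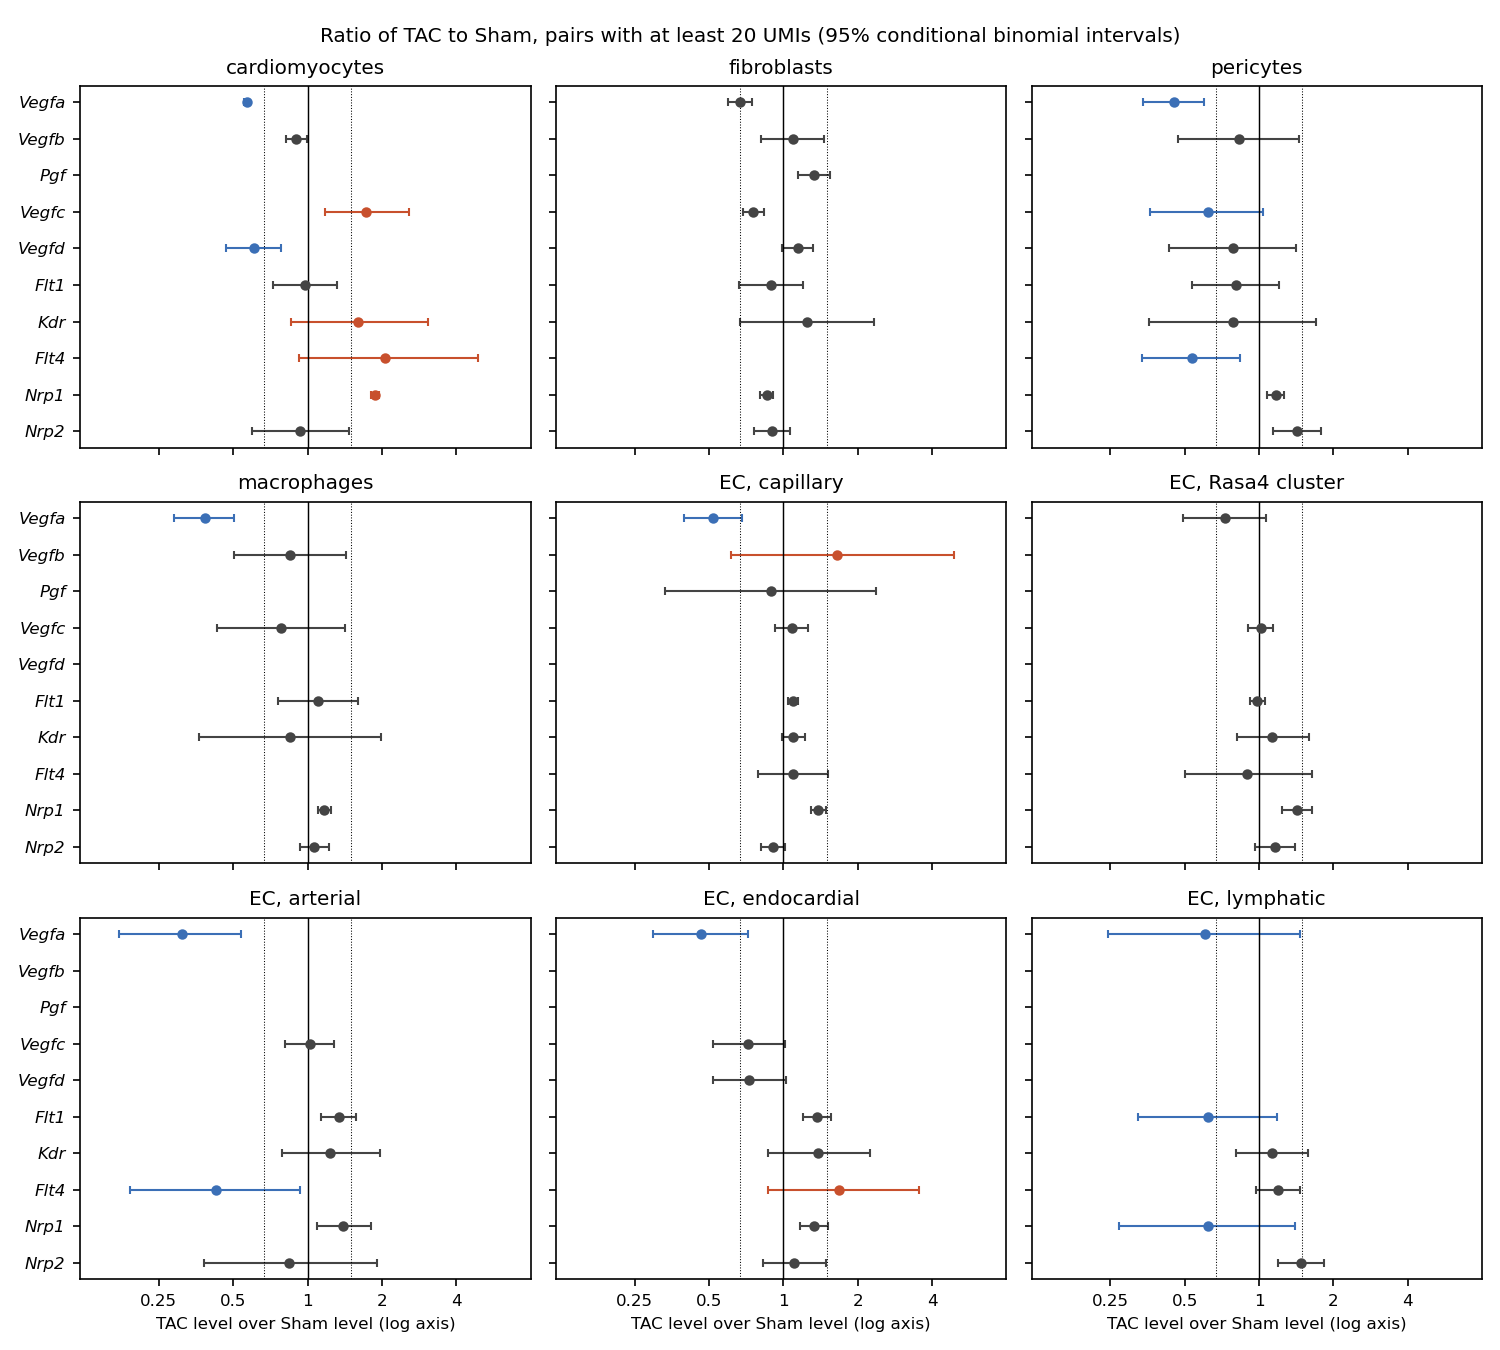
Ratio of the TAC level to the Sham level (log axis) of each member in 9 cell types, for pairs of gene and type with at least 20 UMIs; bars are conditional binomial 95% intervals, the solid line is 1, dotted lines are 1.5-fold, and blue and red points lie past it downward and upward. Vegfa lies left of 1 in all 9 panels, and Nrp1 lies right of 1 in cardiomyocytes, pericytes, macrophages and the 4 blood vascular classes.

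The other genes of the pathway were taken from 7 lists of 80 genes in all. In cardiomyocytes 3 of 68 listed genes with enough UMIs were past 1.5-fold upward and 7 downward, against 16.4% of all genes upward and 8.19% downward. Of the genes upstream of Vegfa that sense oxygen, 1 of 7 passed: Egln1, a prolyl hydroxylase that marks HIF proteins for breakdown, was lower in TAC (2823 and 1766 UMIs, ratio 0.643, 0.606 to 0.683). Of 8 other genes regulated by hypoxia, Bnip3, a mitochondrial protein of autophagy, was lower (1263 and 652 UMIs, 0.531, 0.482 to 0.584), Ndrg1 was lower (51 and 20 UMIs, 0.403, 0.228 to 0.688), and Ldha, a lactate dehydrogenase subunit, was higher (359 and 536 UMIs, 1.54, 1.34 to 1.76). Over the 7 lists the median ratio in cardiomyocytes lay between 0.825 and 1.39, against 1.03 over all genes. The hypoxia genes thus did not share a direction in cardiomyocytes. Of 24 signal transducers, Pik3r1, a regulatory subunit of PI3-kinase (14516 and 8295 UMIs, 0.588, 0.572 to 0.604), and Pxn, the focal adhesion protein paxillin (1086 and 570 UMIs, 0.540, 0.487 to 0.598), were lower. Of 9 other neuropilin ligands and plexins, Sema3b, a secreted semaphorin (416 and 195 UMIs, 0.482, 0.404 to 0.573) and Plxnd1, a semaphorin receptor (220 and 125 UMIs, 0.584, 0.465 to 0.731) were lower.

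The list of genes induced by VEGF or marking tip cells, the leading cells of a vessel sprout, had median ratios of 1.39 over 5 genes in cardiomyocytes, 1.53 over 6 in fibroblasts, 1.16 over 5 in capillary cells and 2.35 over 3 in the Rasa4 cluster, against at most 1.03 over all genes of these types. The median was 1.34 over 4 genes in macrophages, 1.45 over 2 in arterial and 2.40 over 2 in endocardial cells, but 1.003 over 4 in pericytes and 0.887 over 2 in lymphatic cells. Angpt2, an antagonist of the Tie2 receptor, was higher in TAC in cardiomyocytes (172 and 311 UMIs, 1.86, 1.54 to 2.25), fibroblasts (51 and 121 UMIs, 2.48, 1.77 to 3.51) and macrophages (31 and 83 UMIs, 2.27, 1.48 to 3.55). Nr4a1, an immediate early transcription factor, was higher in fibroblasts (102 and 272 UMIs, 2.79, 2.21 to 3.54), endocardial cells (14 and 101 UMIs, 3.75, 2.13 to 7.1) and capillary cells (16 and 41 UMIs, 2.28, 1.25 to 4.36). Adm, which encodes the vessel-dilating peptide adrenomedullin, was higher in fibroblasts (97 and 141 UMIs, 1.52, 1.17 to 1.99). In fibroblasts 4 of 6 listed genes with enough UMIs passed upward and 0 downward, against 14.3% and 6.32% of all genes, and in capillary cells 2 of 5 and 0, against 12.1% and 9.78%. In pericytes 1 of 4 passed upward and 1 downward, against 11.5% and 9.04%. In lymphatic cells 0 of 2 passed in either direction, against 15.7% and 13.3%. The Rasa4 cluster had 2 of 3 upward and 0 downward, against 15.7% and 11.3%. Cardiomyocytes had 1 of 5 and 0 (16.4% and 8.19% of all genes), and macrophages 1 of 4 and 0 (12.9% and 11.4%). Arterial cells had 1 of 2 and 0 (17.2% and 13.9%), and endocardial cells 1 of 2 and 0 (14.9% and 12.2%).

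In capillary cells 3 of 60 pathway genes were past 1.5-fold upward and 6 downward, in the Rasa4 cluster 5 and 3 of 53, in arterial cells 5 and 4 of 42, in endocardial cells 3 and 5 of 49, and in lymphatic cells 7 and 5 of 42. In both directions together all genes came to 21.9%, 27.0%, 31.1%, 27.1% and 29.0% in these 5 classes, so the pathway counts were near or below the share of all genes. Among the proteases that process Vegfc and Vegfd, Pcsk5 was higher in arterial cells (47 and 167 UMIs, 1.99, 1.43 to 2.81) and cardiomyocytes (73 and 129 UMIs, 1.82, 1.35 to 2.46), and Adamts3, which cleaves VEGF-C, was lower in fibroblasts (576 and 300 UMIs, 0.545, 0.472 to 0.627). This list did not share a direction: in arterial cells 1 of 4 genes passed upward and 1 downward, in capillary cells 0 and 2 of 6, in macrophages 0 and 1 of 5, and in pericytes 2 and 0 of 6. Dab2, an adaptor for receptor uptake, was higher in macrophages (2644 and 5369 UMIs, 1.72, 1.64 to 1.80) and in lymphatic cells (57 and 136 UMIs, 1.71, 1.24 to 2.37). The macrophages had 7 of 57 pathway genes upward and 4 downward, the fibroblasts 5 and 3 of 68, and the pericytes 4 and 4 of 59, against 24.3%, 20.6% and 20.6% of all genes in both directions together.

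The genes whose levels most resembled those of each member were found over 15 types in both libraries, 30 values of log2(level + 1) that share libraries and depth, among 13327 genes without markers. For Vegfa they were Tacc2, Pde4dip and Rbm20 (Pearson r = 0.92, 0.89 and 0.86), and for Vegfb Pcbp4 (0.92), Car14 and Trmu. For Pgf they were Dnm3os (0.83), D630033A02Rik and Gm37522, for Vegfc Fzd4 (0.83), Kctd10 and Fgfr3, and for Vegfd Gxylt2 (0.72), Pir and Galnt15. For Flt1 they were Erg (0.90), Fas and Clec1a, for Kdr Tead4 (0.96), Spns2 and Podxl, and for Flt4 Podxl (0.89), Ecscr and Klhl4. For Nrp1 they were Lrrc36 (0.80), Gm26691 and Cyp26b1, and for Nrp2 Tagln2 (0.82), Rai14 and Apaf1. The r of the first gene was lowest for Vegfd and Nrp1.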

How the data were processed

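Single-cell RNA sequencing of mouse heart was available as 1 Sham and 1 TAC library. UMI counts of each gene in each barcode were made by the authors with Cell Ranger (7.1.0 in the matrix headers and in the submitters' processing notes; the paper's methods name another version) and were deposited without normalization. The strandedness of counting and the use of intronic reads are not given in the sources used here, and the kit version differs between the labels and the paper. Introns, if counted, add nuclear RNA to the levels. Mitochondrial genes held 0.591% of all Sham UMIs and 0.509% of all TAC UMIs, and the part of nuclear RNA in the levels was not tested. Genes were placed with GENCODE M21, because the genome build is not given in the sources used here, and promoters come from RefSeq (GRCm38.p6).

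The counts were analysed with scanpy 1.11.5, anndata 0.12.19, igraph 0.11.9, scikit-learn 1.9.0, numpy 2.4.6, scipy 1.17.1, pandas 2.3.3 and Python 3.11.15, and plots were drawn with matplotlib 3.10.9. Barcodes with at least 200 detected genes were kept (1 barcode was below in each library). Scrublet at an expected rate of 0.8% per 1000 cells marked 459 Sham (4.62%) and 479 TAC (4.82%) barcodes, which were removed. Each library was clustered by Leiden (resolution 1.0, 2000 variable genes, 30 components, 15 neighbours), and the endothelial cells of both libraries were then clustered together (1000 variable genes, 20 components), a choice made after their marker genes, not the members, were seen. The members, pathway genes and mitochondrial genes were left out of clustering. Cluster names required 3 or more markers of a fixed list. A remaining endothelial cluster, unless set aside as above, was called capillary from at least 5 of the 8 capillary markers, a number also set after marker values were seen.

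Levels are summed UMIs per 1000000 UMIs. With 1 library a group no test was made: ratios carry exact conditional binomial intervals, levels exact Poisson intervals and shares of cells exact Clopper-Pearson intervals, at 95%, which cover counting error only. Shares were taken after thinning each cell to 1000 UMIs, leaving out shallower cells. Among genes with at least 20 UMIs, 1.5-fold was the size that counted as past. The carry-over level of a member in a type is its level in the type where it was highest in Sham, times the share of that type's 8 markers found in the type. All 10 members are reported in each of the main types; of each pathway list, at most 3 genes past the size in a type are named, those with the most UMIs; and for each member the 3 genes with the highest Pearson correlation. The alternatives, whose effect the closing section gives, changed filters, doublet removal, resolutions, scaling, depth, thresholds and the cells used. The ratio script was checked on simulated counts. The members and lists were chosen with earlier results of these data known.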

Additional observations from a re-analysis of the deposited data

How the results depend on the processing

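The ratios of the members were recomputed under 14 alternatives of the cells, clusters and scaling, their levels and shares of UMIs under those of them that could change these, and shares of cells at 2 other depths and without thinning; pathway genes, carry-over levels and likeness were not recomputed. Of the alternatives, clustering the endothelial cells of each library apart and counting the unnamed endothelial clusters as capillary were chosen after the data were seen. The Vegfa ratio of cardiomyocytes (0.567) was 0.552 when divided by the median ratio of all genes, and the Nrp1 ratio of capillary cells (1.39) was 1.49 at an endothelial resolution of 0.5. The 19 pairs of member and cell type past 1.5-fold were 6 at 2-fold and 12 with a minimum of 50 UMIs. Of these pairs, 13 stayed past the size without doublet removal, where Vegfc (0.879) and Flt4 (0.692) in pericytes and Vegfa (0.715), Flt1 (0.750) and Nrp1 (0.708) in lymphatic cells did not. Whether or not the pair stayed past the size, the ratio moved by over 1.5 times in 2 pairs without doublet removal. It did so in 3 pairs with the endothelial cells of each library clustered apart, and in 1 with shared barcodes left out. The Vegfb ratio of capillary cells (1.65) fell below 1 with at least 500 detected genes (0.879), without doublet removal (0.769), at endothelial resolution 2 (0.933), with each library apart (0.735) and with the unnamed clusters merged (0.833), and was 1.25 with both libraries clustered together; the cause was not tested. The share of Vegfa UMIs in cardiomyocytes moved from 93.1% to 78.7% (Sham) and from 92.6% to 84.8% (TAC) without doublet removal. The share was 77.9% and 86.1% at resolution 2, and 93.4% (Sham) without the top cell of each type. More cells fell in unnamed clusters at resolution 2, and whether these cells account for the lower share was not tested. Shares of cardiomyocytes with a UMI follow the depth: Vegfa in Sham was 52.8% at 500 UMIs, 91.2% at 2000 and 97.3% without thinning, and in TAC 33.6%, 78.4% and 93.7%; Nrp1 was 12.9%, 40.8% and 62.3% in Sham and 24.9%, 61.6% and 80.3% in TAC. The direction between the libraries was the same at each depth for both genes. With at least 500 detected genes no Rasa4 cluster formed, so it has no value there. No paired analysis was possible because each group is 1 library. The number of cells limits the values of small classes, such as the 85 Sham lymphatic and 98 Sham arterial cells.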

Other observations

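Over all cells kept, without regard to type, the TAC level was 0.540 of the Sham level for Vegfa (0.529 to 0.552) and 0.875 for Vegfb (0.803 to 0.954), 1.18 times for Pgf (1.03 to 1.35), 1.08 for Vegfc (1.02 to 1.14), 0.991 for Vegfd (0.887 to 1.11), and 1.36 times for Flt1, 1.31 for Kdr, 1.35 for Flt4, 1.46 for Nrp1 and 1.23 for Nrp2. The whole-library ratios of Flt1 and Kdr were above those of the capillary cells (1.09 and 1.10), and the TAC library also held more cells of the capillary, arterial, endocardial and lymphatic classes and of the Rasa4 cluster.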
